A study of Mus musculus with 22 samples.

Results

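Transcripts of 8 ependymal and motile cilia genes were measured in whole mouse spinal cord, namely Foxj1, Rsph1, Dynlrb2, Tekt1, Enkur, Ccdc153, Tmem212 and Mia. They are genes used by cells with motile cilia and make up 8 of the 21995 genes counted. All 8 were looked up by symbol and found, and how they were chosen is stated with the methods.

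Bulk RNA-seq libraries of 22 C57BL/6 mice formed 2 experiments, with 1 library per mouse. The aging experiment held 8 young wild-type mice of 3 to 4 months and 8 old wild-type mice of 18 to 24 months, all male, with libraries made by the Roche RNA KAPA Hyperprep kit. In the ALS experiment 3 symptomatic SOD1 G93A mice were set beside 3 controls of wild type, all of 5 to 6 months and of both sexes, with libraries made by the Illumina TruSeq kit. The SOD1 G93A line has a high-copy transgene of mutant human SOD1, driven by the human SOD1 promoter in neurons and glia alike, so it models an inherited form of the disease through a surplus of mutant protein. The sex of each library in the ALS experiment was not given in the sources used here and did not enter the fits. Libraries held 5078092 to 9358055 counts in the aging experiment and 9675610 to 13219797 in the ALS experiment, so 3 counts corresponded to 0.321 to 0.591 CPM and to 0.227 to 0.31 CPM, where CPM are counts scaled to a common library size. Kit and experiment coincided, and levels were therefore compared only within an experiment.

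Ependymal cells line the central canal of the spinal cord and the ventricles of the brain, and their beating cilia move cerebrospinal fluid. The shaft of a motile cilium, the axoneme, is built of doublet microtubules that carry dynein arms and radial spokes. Foxj1 is the transcription factor that switches on the motile cilia program, together with factors of the RFX family.

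The label of the gene group was checked against markers of neighbouring tissues. All 8 genes had counts in each of the 4 groups. Genes restricted to airway or sperm cells were near 0, with none of 10 tested in either comparison and summed levels of at most 0.741 CPM in any young library and 0.384 CPM in any control library. Among 14 choroid plexus genes Otx2 had 0 counts in all 22 libraries, and the summed level was 25.3 ± 0.436 CPM in controls (mean ± SD, n = 3) and 25.7 ± 1.2 CPM in SOD1 G93A mice (n = 3), with Prlr the most abundant gene. The even sum does not mean that each gene was even, since 2 of the 5 choroid plexus genes tested were called higher and 0 lower. The shares over all genes were 18.4% higher and 15.5% lower. With each of the 6 ALS libraries left out in turn, Calml4, called higher, kept its call in 2 runs. Slc4a5, also called higher, went from 2.22 to 6.51 CPM (adjusted p = 0.00206 by edgeR's quasi-likelihood test with Benjamini-Hochberg adjustment), and Prlr, not called, had means of 13.8 and 9.57 CPM (edgeR adjusted p = 0.0988). The lists do not show which spinal cord cells held the transcripts.

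Promoter windows of GRCm38.p6 from RefSeq, of 250 bases before to 50 bases after a start site, were matched for 6 of the 8 members. They are shown because 4 of the 6 hold the letters GTTGCC, on either strand, which form one arm of the X-box that RFX factors bind. The letters occur in 12.5% of all 32851 windows of this length. The 4 windows with a match are given 5′ to 3′ with those letters, or GGCAAC for the other strand, in capitals, at chr9:44240427-44240726 (plus strand) for Ccdc153, chr8:116504765-116505064 (plus) for Dynlrb2, chr2:21205316-21205615 (minus) for Enkur and chr11:72361833-72362132 (minus) for Tekt1.
Ccdc153: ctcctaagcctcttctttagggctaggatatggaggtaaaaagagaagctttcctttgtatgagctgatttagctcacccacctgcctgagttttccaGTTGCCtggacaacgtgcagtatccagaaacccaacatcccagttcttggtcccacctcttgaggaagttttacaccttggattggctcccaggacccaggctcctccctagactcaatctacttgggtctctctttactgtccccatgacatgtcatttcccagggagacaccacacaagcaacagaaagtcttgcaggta
Dynlrb2: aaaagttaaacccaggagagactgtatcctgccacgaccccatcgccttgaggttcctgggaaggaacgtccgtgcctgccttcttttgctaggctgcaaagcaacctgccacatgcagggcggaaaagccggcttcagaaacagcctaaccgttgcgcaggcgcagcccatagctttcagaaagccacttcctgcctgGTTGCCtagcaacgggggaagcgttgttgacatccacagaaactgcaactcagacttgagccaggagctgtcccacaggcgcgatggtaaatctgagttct
Enkur: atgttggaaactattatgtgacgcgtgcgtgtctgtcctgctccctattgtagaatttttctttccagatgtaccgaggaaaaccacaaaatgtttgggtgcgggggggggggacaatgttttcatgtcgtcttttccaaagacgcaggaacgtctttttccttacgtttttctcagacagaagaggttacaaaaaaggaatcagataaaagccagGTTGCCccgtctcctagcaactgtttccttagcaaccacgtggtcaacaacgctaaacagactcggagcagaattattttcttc
Tekt1: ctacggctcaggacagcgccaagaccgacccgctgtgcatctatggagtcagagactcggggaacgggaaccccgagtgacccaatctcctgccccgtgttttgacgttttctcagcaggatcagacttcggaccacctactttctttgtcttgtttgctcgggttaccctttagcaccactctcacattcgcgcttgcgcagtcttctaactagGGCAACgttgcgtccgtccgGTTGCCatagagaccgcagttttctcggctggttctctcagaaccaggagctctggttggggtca

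The match began 152 bases before the start site in Ccdc153, 51 in Dynlrb2 and 34 in Enkur, and Tekt1 had a match on each strand, 35 and 15 bases before the start. The window of a second Tekt1 start site and those of Tmem212 and Mia held none. The forkhead letters GTAAACA, searched on both strands because Foxj1 is a forkhead factor, were in none of the members' windows and in 3.65% of all windows. A match is a description of the letters and says nothing of binding.

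Most of the group was scarce in whole cord. Per transcript length, Foxj1 had the highest level in all 4 groups, at 11.7 ± 1.27 FPKM in young mice (mean ± SD, n = 8), 13 ± 0.963 in old mice (n = 8), 10.7 to 11.4 in the 3 controls and 12.5 to 16.9 in the 3 SOD1 G93A mice. Ccdc153 came next in the aging experiment, at 4.92 ± 1.77 FPKM in young and 4.39 ± 0.773 FPKM in old mice. Among young mice the means of Rsph1, Dynlrb2, Mia and Enkur followed, at 2.72, 2.61, 2.29 and 1.8 FPKM, and Tmem212 and Tekt1 were lowest at 1.35 ± 0.685 and 1.08 ± 0.166 FPKM. In the SOD1 G93A group Mia held the second place at 7.99 ± 5.16 FPKM, a spread that reaches down to the levels of Ccdc153, Rsph1, Enkur and Dynlrb2. The counts behind these values were small, with a median of 5.5 counts for Tmem212 and 27.5 for Rsph1 in young libraries, against 246 for Foxj1. Counting error alone would give a coefficient of variation of 19.4% for Rsph1 among young mice, where 27.5% was observed, and of 31.4% for Dynlrb2, where 52.5% was observed. For Tekt1 the spread among young mice was 14.8%, under the 28.7% of counting error, and among old mice Rsph1 and Dynlrb2 had 17.1% and 18.1%, under 19.6% and 26.4%.

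**Figure D1:**
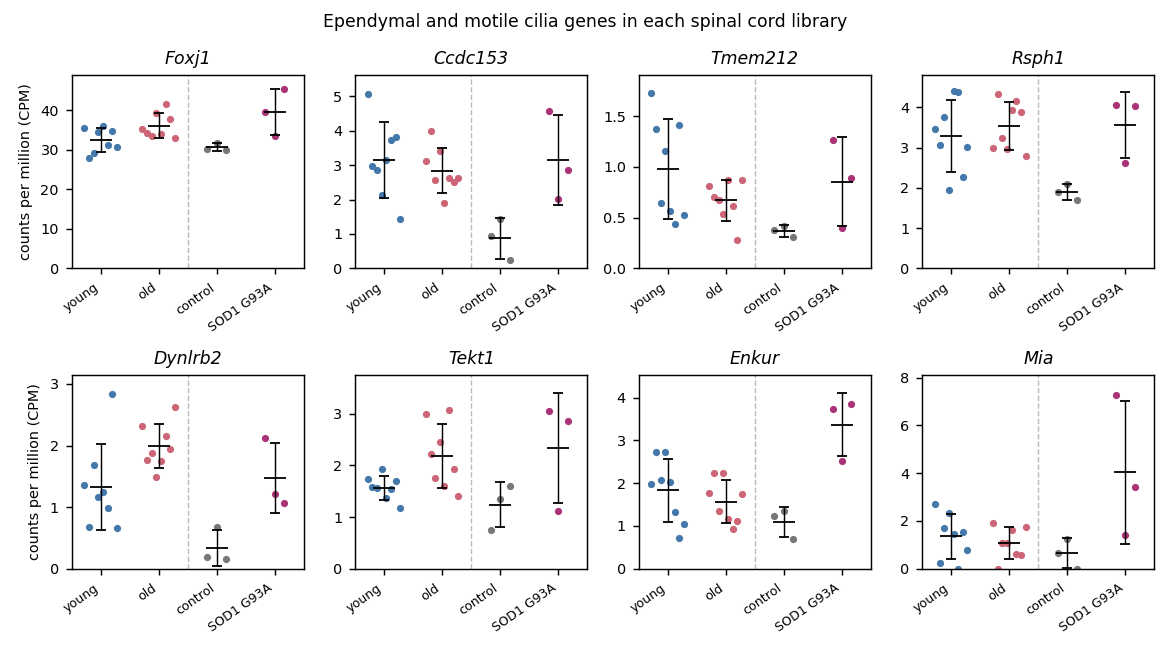
Level of each gene in CPM (vertical axis, starting at 0) in every library, by group (horizontal axis); black bars are the mean with its SD, and the dashed line separates the 2 experiments, which differ in kit. The young and old points overlap for all 8 genes. SOD1 G93A and control points overlap for Tmem212 and Tekt1 and lie apart for the others, a separation whose share over all genes was not counted. These 2 groups also lay apart for some genes of the other lists that were not called.

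The first question was whether the group changed with age or in symptomatic SOD1 G93A mice. In SOD1 G93A mice 6 of the 7 genes tested were higher than in controls, namely Foxj1, Rsph1, Dynlrb2, Enkur, Ccdc153 and Mia, and none was lower. These calls were made by edgeR's quasi-likelihood test with Benjamini-Hochberg adjustment over all genes at an adjusted p under 0.05, a rule that called 18.4% of the 14386 genes tested higher and 15.5% lower. With a log2 fold change beyond 1 also required, 4 genes passed (Dynlrb2, Enkur, Ccdc153 and Mia), where 9.7% of all genes did. The median log2 fold change was 1.63 over the 7 genes and 0 over all genes. Tmem212 was not tested in either comparison because its counts were too low. Tested genes were kept by their counts, and a gene high in 1 group is more easily kept. This touches the 4 genes past both thresholds, since Ccdc153, Dynlrb2, Enkur and Mia each had fewer than 10 counts in at least 1 control library and at least 10 in all SOD1 G93A libraries. With no filter the same 4 genes were called, and with at least 10 counts required in every library none of them could be tested. Whole cord RNA cannot tell more ependymal cells from more RNA per cell.

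In old against young mice 0 of the 7 genes tested were called by edgeR. Foxj1, Dynlrb2 and Tekt1 had an unadjusted edgeR p under 0.05, a level whose share over all genes was not counted. DESeq2 also called 0, and limma on log2(FPKM + 1) called 1, Dynlrb2, at a log2 fold change of 0.51 and an adjusted p of 0.0478. Over all 13647 genes edgeR called 13.5% higher and 12.9% lower, and 2.22% passed with the threshold on the fold change as well, which 0 members did. Over the 7 genes the median log2 fold change was 0.08, against 0 over all genes.

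**Figure D2:**
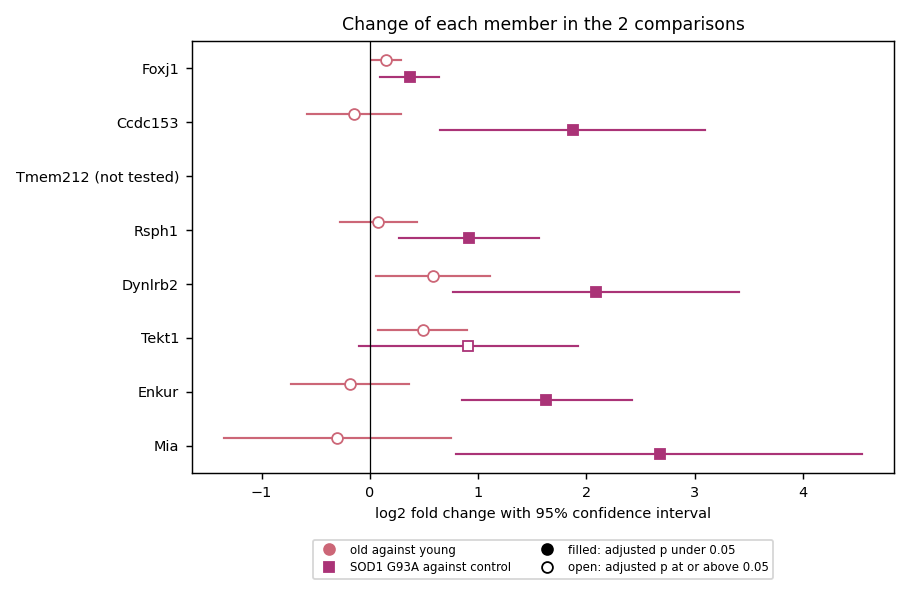
Log2 fold change of each gene (horizontal axis) with its 95% confidence interval, for old against young mice (circles) and SOD1 G93A against control mice (squares); filled symbols have an edgeR adjusted p under 0.05. All 7 old against young symbols are open, and 6 of the 7 SOD1 G93A symbols are filled, with the narrowest interval for Foxj1 and the widest for Mia.

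Foxj1, the transcription factor, had the most counts and, in SOD1 G93A mice, the smallest log2 fold change of the 7 genes tested. Its gene (ENSMUSG00000034227) lies at chr11:116330704-116335399 on the minus strand of GRCm38. Controls had 30.3, 31.8 and 29.9 CPM and SOD1 G93A mice 39.6, 33.5 and 45.3 CPM. Each SOD1 G93A library was above each control, the nearest being SOD1 G93A library 2. The log2 fold change was 0.37 (SE 0.12; edgeR adjusted p = 0.0434), a level 1.29 times that of controls. This call was not kept by DESeq2 (adjusted p = 0.0625), by limma (0.0523) or by edgeR with no filter on low counts (0.0508). Young libraries ranged from 28 to 36.1 CPM with a median of 32.9, and old libraries from 32.9 to 41.6 CPM with a median of 34.7. Old mice sat toward the upper end of the young range and above it, at a log2 fold change of 0.15 (SE 0.07; edgeR adjusted p = 0.0914).

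Rsph1 encodes a protein of the radial spoke head, and its gene (ENSMUSG00000024033) lies at chr17:31255019-31277383 on the minus strand. Controls had 1.9, 2.1 and 1.69 CPM, from 20 to 25 counts, and SOD1 G93A mice 4.07, 2.62 and 4.03 CPM, from 26 to 48 counts. The groups did not overlap, and SOD1 G93A library 2 was again the lowest of its group. Rsph1 was higher at a log2 fold change of 0.92 (SE 0.28; edgeR adjusted p = 0.0353). The call was not kept by DESeq2 (adjusted p = 0.0651), and was kept in 1 of the 6 runs with a library left out. Young libraries ranged from 1.94 to 4.41 CPM with a median of 3.27, and old libraries from 2.8 to 4.34 CPM with a median of 3.56. The old values fell inside the young range, at a log2 fold change of 0.08 with a 95% confidence interval of -0.28 to 0.44.

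Dynlrb2, a dynein light chain of the roadblock family, is encoded at chr8:116504974-116515915 on the plus strand (ENSMUSG00000034467). Controls had 2, 8 and 2 counts, or 0.19, 0.674 and 0.154 CPM, and SOD1 G93A mice had 25, 12 and 12 counts, or 2.12, 1.21 and 1.07 CPM. The groups did not overlap, but 2 of the 3 control libraries were under the level of 3 counts. The log2 fold change was 2.09 (SE 0.58; edgeR adjusted p = 0.0234), with a 95% confidence interval of 0.77 to 3.41. Young libraries ranged from 0.654 to 2.83 CPM with a median of 1.2, and old libraries from 1.49 to 2.62 CPM with a median of 1.91. Young library 7, at 2.83 CPM, lay above all old libraries. The log2 fold change with age was 0.58 (SE 0.25; edgeR adjusted p = 0.093), and without young library 7 it was 0.82 with an edgeR adjusted p of 0.0106.

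Tekt1 encodes a tektin, a filament protein of the doublet microtubules, at chr11:72344722-72362442 on the minus strand (ENSMUSG00000020799). Controls had 0.759, 1.35 and 1.61 CPM and SOD1 G93A mice 3.05, 1.11 and 2.86 CPM. The groups overlapped through SOD1 G93A library 2, which lay below 2 of the controls, and the log2 fold change was 0.91 (SE 0.44; edgeR adjusted p = 0.147). Without that library it was 1.23 with an edgeR adjusted p of 0.0248, and one fit of all 22 libraries gave 0.88 with an edgeR adjusted p of 0.0445. Young libraries ranged from 1.18 to 1.94 CPM with a median of 1.58, and old libraries from 1.4 to 3.08 CPM with a median of 2.09. Old libraries 1, 2, 4 and 6 lay clearly above the young range and the others within it or at its upper end, at a log2 fold change of 0.49 (SE 0.2; edgeR adjusted p = 0.069). Without old library 8, the lowest of its group, the log2 fold change was 0.55 and the edgeR adjusted p 0.0433.

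Enkur encodes enkurin, a calmodulin-binding protein found inside the doublet microtubules, at chr2:21180731-21205365 on the minus strand (ENSMUSG00000026679). Controls had 13, 16 and 9 counts, or 1.23, 1.35 and 0.692 CPM, and SOD1 G93A mice 44, 25 and 43 counts, or 3.73, 2.52 and 3.85 CPM. The groups were well apart, with the lowest SOD1 G93A library at 2.52 CPM and the highest control at 1.35 CPM. The log2 fold change was 1.63 (SE 0.35; edgeR adjusted p = 0.00828), the smallest adjusted p among the 7 genes tested. With age the young range of 0.707 to 2.73 CPM (median 2.01) covered the old range of 0.925 to 2.24 CPM (median 1.55). Old against young the log2 fold change was -0.18, with a 95% confidence interval of -0.73 to 0.36.

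Ccdc153, a coiled-coil protein widely used as a marker of ependymal cells, is encoded at chr9:44240676-44247306 on the plus strand (ENSMUSG00000070306). Controls had 10, 17 and 3 counts, or 0.949, 1.43 and 0.231 CPM, and SOD1 G93A mice 54, 20 and 32 counts, or 4.58, 2.01 and 2.86 CPM. Control library 3 stood low and the groups did not overlap. Ccdc153 was higher by 1.88 on the log2 scale (SE 0.54; edgeR adjusted p = 0.0269). Young libraries ranged from 1.44 to 5.07 CPM with a median of 3.06, and old libraries from 1.9 to 3.99 CPM with a median of 2.62. Old values lay inside the young range, at a log2 fold change of -0.15 with a 95% confidence interval of -0.58 to 0.29.

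Tmem212, a membrane protein also used as an ependymal marker, had the fewest counts. Its gene (ENSMUSG00000043164) lies at chr3:27866066-27896368 on the minus strand. Controls had 4, 5 and 4 counts and SOD1 G93A mice 15, 4 and 10 counts. SOD1 G93A library 2 was within the control range. With no filter on low counts the log2 fold change was 1.21 (SE 0.6; edgeR adjusted p = 0.169). Young libraries had 4 to 14 counts with a median of 5.5, and old libraries 2 to 6 counts with a median of 5. With no filter the log2 fold change with age was -0.54 (SE 0.34; edgeR adjusted p = 0.293). A change of Tmem212 was not called in either comparison with all libraries kept.

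Mia encodes a small secreted protein first described in melanoma cells, and its gene (ENSMUSG00000089661) lies at chr7:27179742-27181157 on the minus strand. Controls had 7, 15 and 0 counts, or 0.664, 1.26 and 0 CPM, where 3 counts would be 0.227 CPM in the library at 0. SOD1 G93A mice had 86, 14 and 38 counts, or 7.29, 1.41 and 3.4 CPM. The groups did not overlap, though SOD1 G93A library 2 was close to control library 2. Mia was higher by 2.68 on the log2 scale (SE 0.83; edgeR adjusted p = 0.0351), with a 95% confidence interval of 0.8 to 4.55. Young libraries ranged from 0 to 2.72 CPM with a median of 1.51, and old libraries from 0 to 1.9 CPM with a median of 1.07. Both groups held 1 library at 0, and the log2 fold change with age was -0.3, with a 95% confidence interval of -1.35 to 0.75.

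The counts of Mia are uncertain because its exons overlap those of Gm21983 on the same strand, and reads there may be given to either gene. In the 4 libraries where Mia had at most 2 counts, Gm21983 had 40 to 45 counts. In the other aging libraries, of which there were 13, Gm21983 had 0 counts in 10. Added together, the 2 genes had 33, 20 and 43 counts in controls and 159, 75 and 123 counts in SOD1 G93A mice, so the groups lay apart on the sum as well. A fit with both genes added into 1, chosen after seeing the data, gave a log2 fold change of 1.98 (SE 0.3; edgeR adjusted p = 0.00224) in SOD1 G93A mice and of -0.4 (SE 0.36; edgeR adjusted p = 0.442) in old mice. No other member shared exons with another annotated gene.

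**Figure D3:**
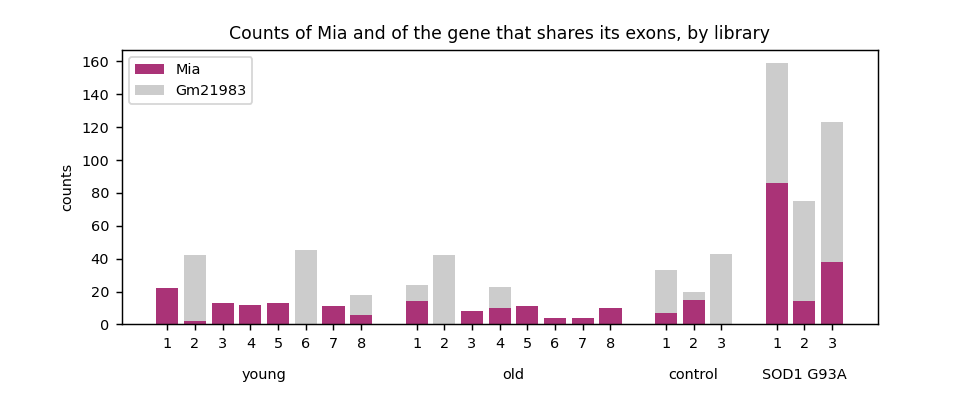
Counts of Gm21983 (grey) stacked on those of Mia (purple) for each library (horizontal axis, library number within its group); the vertical axis starts at 0. The libraries with 0 counts of Mia carry 42 to 45 counts of Gm21983, and the stacked height is greatest in the 3 SOD1 G93A libraries.

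With 3 libraries a group, most calls in SOD1 G93A mice were lost when some single libraries were left out, in fits with fewer samples. Enkur alone was called with each of the 6 libraries left out in turn, with edgeR adjusted p from 0.00266 to 0.0447 and log2 fold changes from 1.38 to 1.82. The other genes tested with all libraries kept a positive log2 fold change in all 6 runs. For all of them but Tekt1 the groups did not overlap, so leaving out 1 library could hardly change the direction. Some calls were lost with little change of the fold, as without control library 1, where the log2 fold change was 1.94 for Ccdc153 and 0.91 for Rsph1. Others moved widely, with log2 fold changes from 1.39 to 2.46 for Ccdc153, 1.71 to 3.03 for Dynlrb2 and 1.94 to 3.69 for Mia over the 6 runs. Without control library 2 these 3 genes were at their highest, and Mia had 2.05 without control library 3 and 1.94 without SOD1 G93A library 1. Leaving out SOD1 G93A library 2 gave lower edgeR adjusted p for all 7 genes tested, and Tmem212, tested in that run, then had a log2 fold change of 1.54 with an edgeR adjusted p of 0.042, so 8 genes were called. Leaving out control library 2 left 4 genes called. With control library 1, control library 3, SOD1 G93A library 1 or SOD1 G93A library 3 left out, 1 gene was called. For Ccdc153 the edgeR adjusted p was 0.0759 without control library 1, 0.0647 without control library 3, 0.0893 without SOD1 G93A library 1 and 0.0746 without SOD1 G93A library 3. For Dynlrb2 the values in the same order were 0.0865, 0.0849, 0.09 and 0.0548, and for Mia 0.0985, 0.0788, 0.116 and 0.0838, as edgeR adjusted p. Rsph1 and Foxj1 also lost the call without control library 2, at edgeR adjusted p of 0.0771 and 0.0996. In the same order of the other 4 libraries the edgeR adjusted p of Rsph1 was 0.0875, 0.0983, 0.117 and 0.124, and that of Foxj1 was 0.119, 0.124, 0.0808 and 0.168. DESeq2 called Ccdc153, Dynlrb2, Enkur and Mia, and gave an adjusted p of 0.0651 for Rsph1.

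**Figure D4:**
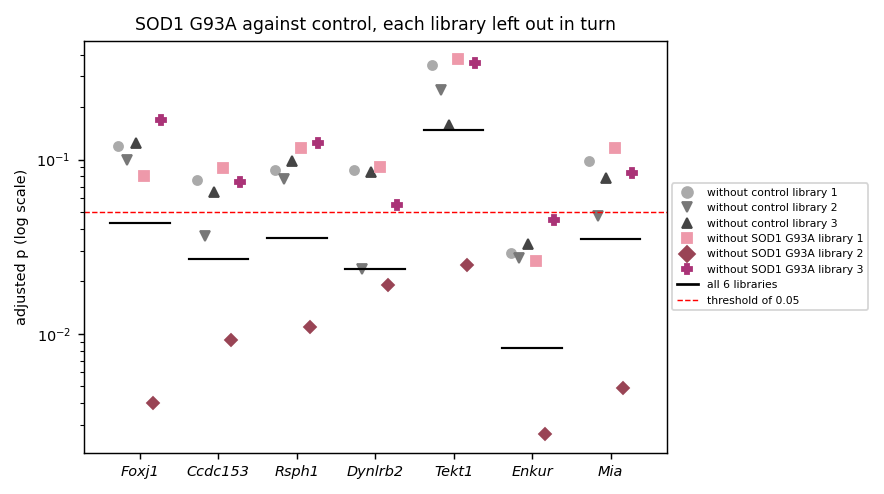
Adjusted p of each gene tested (vertical axis, log scale) in SOD1 G93A against control mice with each of the 6 libraries left out (symbols), beside the value with all 6 (black line) and the threshold of 0.05 (dashed line). All 6 symbols of Enkur lie under the threshold, and the symbol without SOD1 G93A library 2 is the lowest for each gene.

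The SOD1 G93A library with the lowest summed cilia gene level was also the nearest to controls in the sums of microglial, astrocyte and neuronal markers. Summed over the 7 genes without Foxj1, the level was 6.07, 8.59 and 4.69 CPM in controls and 26.1, 11.3 and 19 CPM in SOD1 G93A libraries 1, 2 and 3. Summed over 12 microglial genes it was 480, 428 and 393 CPM in controls and 3140, 1650 and 2460 CPM in the SOD1 G93A libraries in that order. Summed over 12 astrocyte genes it was 10500, 10000 and 10100 CPM against 24400, 16000 and 21100 CPM. This sum leans on Gfap, its most abundant gene, with means of 1760 CPM in controls and 9260 CPM in SOD1 G93A mice. The 10 neuronal genes ran the other way, with 9580, 10100 and 9950 CPM in controls and 3870, 6400 and 4450 CPM in the SOD1 G93A libraries. Not all sums ran this way, since those of oligodendrocyte genes were 30500, 27300 and 31300 CPM in controls and 26500, 26400 and 29100 CPM in the SOD1 G93A libraries, with library 2 the lowest. The choroid plexus sum was highest in library 2, at 26.9 CPM against 24.5 and 25.6 CPM in libraries 1 and 3, and the Schwann cell sums of 1050, 896 and 900 CPM put libraries 2 and 3 together among controls of 869, 946 and 889 CPM. The part of these markers in the change of the cilia genes was not tested.

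The changes in the 2 experiments were compared as a difference in one fit of all 22 libraries. The change in SOD1 G93A mice exceeded the change in old mice for 4 of the 8 genes at an edgeR adjusted p under 0.05, where 25.8% of 14502 genes differed in either direction. Ccdc153 differed by 1.99 on the log2 scale (SE 0.51; edgeR adjusted p = 0.00473), Enkur by 1.79 (SE 0.47; edgeR adjusted p = 0.00591), Mia by 2.94 (SE 1.01; edgeR adjusted p = 0.0327) and Tmem212 by 1.72 (SE 0.64; edgeR adjusted p = 0.047). Rsph1 differed by 0.8 (SE 0.33; edgeR adjusted p = 0.0715), Dynlrb2 by 1.47 (SE 0.6; edgeR adjusted p = 0.0727), Tekt1 by 0.39 (SE 0.42; edgeR adjusted p = 0.538) and Foxj1 by 0.18 (SE 0.13; edgeR adjusted p = 0.317). Ccdc153 and Enkur were called with each of the 22 libraries left out, and by DESeq2. DESeq2 gave an adjusted p of 0.0876 for Mia and 0.0726 for Tmem212. Tmem212 was called in 7 of the 22 runs, with edgeR adjusted p from 0.0163 to 0.22, and Mia in 18. In these runs Rsph1 was called in 4 and Dynlrb2 in 2. Without control library 2 the difference was 2.58 for Ccdc153, 2.4 for Dynlrb2 and 3.95 for Mia, and for Mia it was 2.32 without control library 3 and 2.21 without SOD1 G93A library 1. Gm21983, which shares exons with Mia, had a difference of 2.13 (SE 1.36; edgeR adjusted p = 0.264), and the sum of both genes was not fitted in this comparison. Without young library 1, control library 1, control library 3 or SOD1 G93A library 1 the count was 2, and Mia then had an edgeR adjusted p of 0.0567, 0.0617, 0.0967 and 0.168 in that order. Disease, age, kit and sex differ between the experiments and cannot be told apart in this difference.

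In SOD1 G93A mice the lists for the rest of the cilium had smaller median changes than the members. In 3 lists of axoneme genes, SOD1 G93A mice had 9 of 74 genes tested higher and 2 lower, at a median log2 fold change of 0.29, and 5 of 66 were higher and 3 lower in old mice, with a median of 0.02. All of these counts were smaller shares than those over all genes. The latter were 18.4% higher and 15.5% lower in SOD1 G93A mice, and 13.5% and 12.9% in old mice. Of the 93 axoneme genes listed, 19 had counts too low to be tested in SOD1 G93A mice. Scarce genes are called less easily, and the part of this in the smaller shares was not tested. In SOD1 G93A mice 55 of the 74 had a positive log2 fold change, where 50.3% of all genes did. The count of 9 was 5 without control library 1, 5 without control library 3, 16 without SOD1 G93A library 2 and 4 without SOD1 G93A library 3. Of the dynein arm and assembly genes 3 of 26 were higher and 1 lower, with a median of 0.12, where 18.4% of all genes were higher and 15.5% lower. Dnaaf3, a dynein assembly factor, went from 1.06 ± 0.294 CPM in controls to 4.09 ± 0.248 in SOD1 G93A mice (mean ± SD, n = 3 each), at a log2 fold change of 1.93 (SE 0.29; edgeR adjusted p = 0.00211), and was also higher in old mice, by 0.78 (SE 0.24; edgeR adjusted p = 0.0196). The outer arm gene Dnai2 was higher by 0.91 (SE 0.2; edgeR adjusted p = 0.00939), while Spag1 was lower, at -0.65 (SE 0.14; edgeR adjusted p = 0.00983, or 0.0522 without SOD1 G93A library 3).

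Of the radial spoke and central pair genes 2 of 22 were higher in SOD1 G93A mice and 0 lower by edgeR, with a median log2 fold change of 0.31. The shares over all genes were 18.4% higher and 15.5% lower. Dnajb13 was higher by 1.94 (SE 0.46; edgeR adjusted p = 0.0127, or 0.052 without control library 1 and 0.0634 without SOD1 G93A library 3) and rose in old mice by 0.98 (SE 0.3; edgeR adjusted p = 0.0175). The other called gene, Cfap43, was higher in SOD1 G93A mice by 0.87 (SE 0.29; edgeR adjusted p = 0.0452). It was called in only 1 of the 6 runs with a library left out, and its edgeR adjusted p was 0.101 without control library 1. The doublet microtubule and nexin link list had 4 of 26 higher and 1 lower, with a median of 0.36, against 18.4% and 15.5% over all genes. Cfap126 was higher in SOD1 G93A mice by 1.42 (SE 0.32; edgeR adjusted p = 0.0103) and in old mice by 1.07 (SE 0.21; edgeR adjusted p = 0.000475). Drc7, of the nexin link, was higher in SOD1 G93A mice by 1.68 (SE 0.37; edgeR adjusted p = 0.00976), against 0.22 in old mice (SE 0.26; edgeR adjusted p = 0.584). Dnaaf3, Dnai2, Cfap126 and Drc7 were called in SOD1 G93A mice with each of the 6 libraries left out.

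Genes shared with the immotile primary cilia of other cells, those of intraflagellar transport and the BBSome, gave 2 higher and 3 lower of 40 in SOD1 G93A mice, at a median log2 fold change of -0.08, and 2 higher and 8 lower in old mice, with a median of -0.1. Among all genes 18.4% were higher and 15.5% lower in SOD1 G93A mice, and 13.5% and 12.9% in old mice. Only the 8 lower in old mice were a larger share than that. The kinesin subunit Kif3a was lower in both, at -0.58 (SE 0.12; edgeR adjusted p = 0.00836) and -0.32 (SE 0.05; edgeR adjusted p = 4.46e-05). Of 6 other regulators of ciliogenesis tested, 1 was higher in SOD1 G93A mice, Rfx2 at 0.85 (SE 0.24; edgeR adjusted p = 0.024), and the edgeR adjusted p was 0.0859 without control library 2, 0.057 without control library 3 and 0.104 without SOD1 G93A library 3.

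Ependymal genes outside the axoneme formed a further list, which holds more abundant genes, so its counts were not compared with those of the axoneme lists. In SOD1 G93A mice 16 of 26 tested were higher and 1 lower, at a median log2 fold change of 1.17, and of 22 tested 11 were higher and 1 lower in old mice, with a median of 0.18. The lower gene in SOD1 G93A mice was Cd24a, at -0.63 (SE 0.1; edgeR adjusted p = 0.00315), and 9 genes were not called. Higher and lower genes made up 18.4% and 15.5% of all genes in SOD1 G93A mice, and 13.5% and 12.9% in old mice. Leaving out single libraries gave 11 to 17 higher in SOD1 G93A mice and 10 to 11 in old mice. Some of the called genes are not confined to ependymal cells. Vim and Nes, intermediate filaments of ependymal cells and of reactive astrocytes, were higher in SOD1 G93A mice by 3.79 (SE 0.34; edgeR adjusted p = 0.000202) and 1.91 (SE 0.21; edgeR adjusted p = 0.000442), and in old mice by 2.29 (SE 0.14; edgeR adjusted p = 2.74e-11) and 1.03 (SE 0.11; edgeR adjusted p = 4.3e-07). The list also holds Aqp4 and S100b, which are on the astrocyte list, and Calml4, which is on the choroid plexus list.

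**Figure D5:**
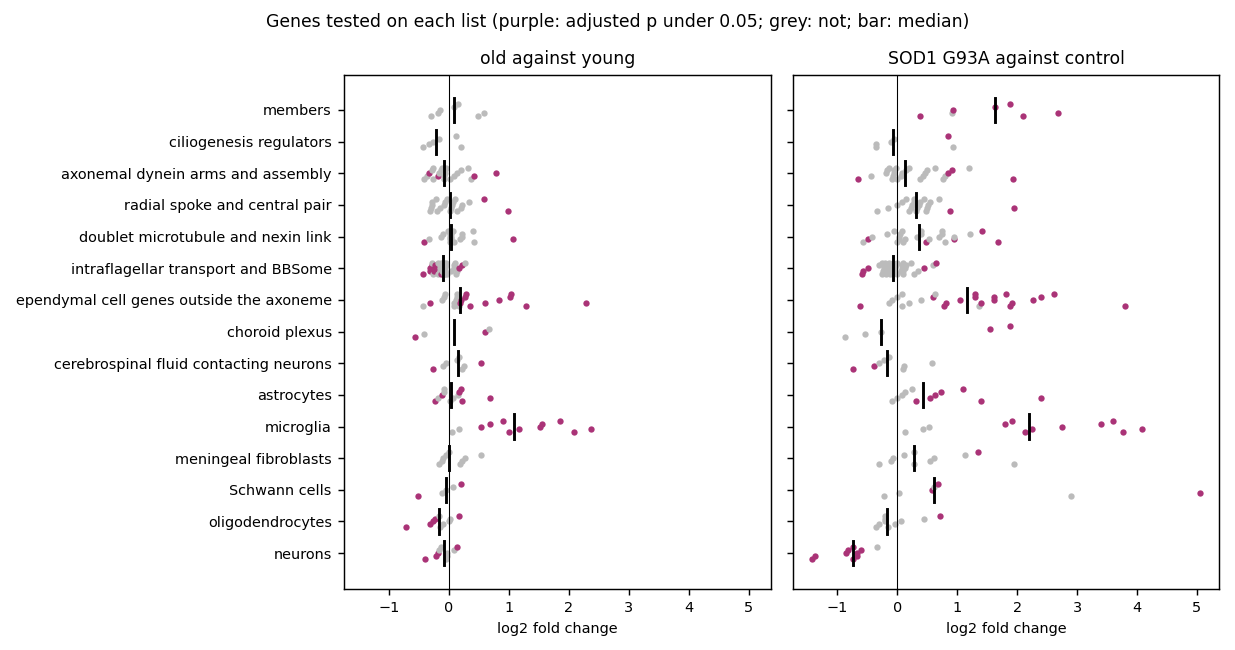
Log2 fold change (horizontal axis) of each gene tested on each list (vertical axis), for old against young mice (left) and SOD1 G93A against control mice (right); purple points have an edgeR adjusted p under 0.05 and black bars are medians. In SOD1 G93A mice the median of the members is 1.63, between those of the ependymal list, 1.17, and of microglia, 2.19.

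Markers of other cells moved beside the members. In SOD1 G93A mice 9 of 12 microglial genes were higher (median log2 fold change 2.19), as were 7 of 12 astrocyte genes (0.42), and none on either list was lower by edgeR. Of 10 neuronal genes 9 were lower, with a median of -0.74, and 2 of 8 genes of neurons that contact the cerebrospinal fluid were lower, with a median of -0.18. These were Slc32a1, which is also on the neuronal list, at -0.74 (SE 0.16; edgeR adjusted p = 0.0082), and Sst at -0.39 (SE 0.13; edgeR adjusted p = 0.0455). The call of Sst was lost without control library 1 (edgeR adjusted p = 0.102), control library 2 (0.16), control library 3 (0.0649), SOD1 G93A library 1 (0.122) or SOD1 G93A library 3 (0.117). Of 10 oligodendrocyte genes 1 was higher, of 11 meningeal fibroblast genes 1, of 7 Schwann cell genes 3 and of 5 choroid plexus genes 2. For comparison, 18.4% of all genes were higher in SOD1 G93A mice and 15.5% lower. The Schwann cell genes Pmp22 and Drp2 lost the call without control library 1 (edgeR adjusted p = 0.0539 and 0.0605). Calml4, of the choroid plexus list, was called in 2 of the 6 runs with a library left out. In old mice 10 of 12 microglial genes were higher, with a median of 1.08 and a summed level of 930 ± 138 CPM against 401 ± 16.3 CPM in young mice (mean ± SD, n = 8 each), while 0 cilia members were called by edgeR. Higher and lower genes in old mice numbered 4 and 2 of 12 for astrocytes, 1 and 4 of 10 for oligodendrocytes, 1 and 3 of 10 for neurons, 1 and 1 of 8 for neurons that contact the cerebrospinal fluid, 1 and 1 of 4 for the choroid plexus, 1 and 1 of 5 for Schwann cells and 0 and 0 of 9 for meningeal fibroblasts. The shares over all genes in old mice were 13.5% higher and 12.9% lower.

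The members' variation among mice of a group was compared by correlation. Over the 22 libraries, as deviations of log2 CPM from group means, the correlation of each member with the mean of the other 7 ran from -0.03 for Rsph1 to 0.6 for Ccdc153 (Spearman's rho -0.11 and 0.52). Without the 2 libraries farthest from the median, control library 3 and SOD1 G93A library 2, these were -0.39 and 0.38. Within the 16 aging libraries the correlations ran from -0.45 for Rsph1 to 0.46 for Tmem212. Within the 6 ALS libraries they were higher, at 0.35 for Tekt1, 0.6 for Foxj1, 0.7 for Dynlrb2, 0.83 for Tmem212, 0.88 for Ccdc153, 0.89 for both Rsph1 and Enkur and 0.91 for Mia. These 6 include both of the farthest libraries, and too few remain without them for a correlation. A difference between the experiments was not tested. Among 13603 genes tested in both comparisons, those most like the members' mean deviation were C1ra (r = 0.75, rho = 0.69), Cttnbp2nl (0.75 and 0.68), Fbln5 (0.73 and 0.72), Ddr2 (0.72 and 0.68), Dok1 (0.7 and 0.67), Rab8b (0.67 and 0.62), Spsb1 (0.66 and 0.52), Cavin1 (0.66 and 0.54), Hydin (0.65 and 0.56) and Aspg (0.65 and 0.57). Hydin, of the central pair, was the only one of these 10 on a cilia or ependymal list. With the same 2 libraries left out, 0 of these 10 were among the 10 most alike, and r was 0.65 for C1ra and 0.58 for Hydin. The ranking was thus not kept, and whether leaving out other libraries would change it as much was not tested.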

How the data were processed

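Spinal cord RNA-seq of 22 mice was analysed from tables of 21995 genes. The authors aligned reads with STAR and deposited RSEM expected counts on the mm10 build, which are whole numbers as deposited, without normalization between libraries. The authors also deposited log2 values of FPKM with a pseudocount of 1, from which FPKM was taken back. The submitters' processing notes name SAMtools 1.3 and RSEM. Columns name groups but carry no replicate numbers, so libraries were numbered by column within a group. Over 62 pairs of libraries within a group, the chi-square of counts per degree of freedom had a minimum of 2.52, where sampling noise gives about 1.

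Rounded counts were fitted per experiment with edgeR 4.0.16 in R 4.3.3 (quasi-likelihood test, TMM scaling, filterByExpr set to at least 10 counts and a total of 15). P values were adjusted over the tested genes by Benjamini-Hochberg. A call is an adjusted p under 0.05, and the rule of a log2 fold change beyond 1 was counted beside it. CPM used TMM library sizes. The procedure was tested on simulated counts with the same spread between libraries for every gene, so the test does not show its recovery of scarce or more variable genes. Alternatives used DESeq2 1.42.0, limma 3.58.1, RLE factors, other filters, one fit of all 22 libraries and each library left out. Python 3.11.15 and matplotlib 3.10.9 were also used.

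Names and positions come from GENCODE M21 on GRCm38, and promoter windows from RefSeq GRCm38.p6. Counting by strand was not given in the sources used here. Intervals at 95% confidence and the level of 3 counts cover a fit's error and counting error only. The members and all lists were chosen with earlier results of these data known. Genes named outside the members were taken as the 4 genes of each list with the smallest adjusted p among those called, or otherwise the 2 most abundant, of which the text gives examples, and the 10 genes most like the members. S100b, Otx2, Cd24a and Gm21983 were named beside this rule after their values were seen.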

Additional observations from a re-analysis of the deposited data

How the results depend on the processing

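No change of a member tested, or of a called list gene named by the rule above, reversed its direction under the alternatives run. Where the groups did not overlap, leaving out 1 library could hardly reverse a direction. Changes of genes named beside that rule, other genes not called, list medians and summed levels were not rerun in this way. In old against young mice 0 members were called as reported, and with DESeq2, RLE factors, no filter, a filter of at least 10 counts in every library (3 members tested) and one fit of all 22 libraries, while limma on log2(FPKM + 1) called 1. Leaving out single libraries gave 0 to 1. In SOD1 G93A against control mice the count of 6 became 2 with at least 10 counts in every library, a filter that left 2 members to test, and 4 with DESeq2, 5 with no filter, 5 with limma, 6 with RLE factors and 7 with one fit of all 22 libraries. Foxj1 was among the genes lost with DESeq2, no filter and limma. Leaving out single libraries gave 1 to 8, with fewer samples in each fit. The difference between the experiments was called for 4 members, for 2 with DESeq2 and for 2 to 5 with single libraries left out, and the cause of the change with DESeq2 was not tested. The 10 genes most like the members were the same 10 with RLE factors, and 0 of them were among the 10 without the 2 libraries farthest from the median.

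The log2 fold changes of Ccdc153, Dynlrb2, Enkur and Mia in SOD1 G93A mice ran from 1.18 to 1.87, 1.26 to 2.11, 1.07 to 1.63 and 2 to 2.67 over alternatives that kept all libraries and Mia apart from Gm21983, all 4 lower ends being on the log2(FPKM + 1) scale, which understates changes of low genes. With single libraries left out they ran from 1.39 to 2.46, 1.71 to 3.03, 1.38 to 1.82 and 1.94 to 3.69. No paired analysis was possible because the columns carry no replicate numbers. Depth limits these results because 7 of the 8 members had a median under 50 counts in each group. The axoneme lists had 14 higher genes in SOD1 G93A mice with one fit of all 22 libraries, against 9 as reported.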
